A study of Mus musculus with 6 samples.

Results

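Kruppel-like factor genes were followed in liver RNA of mice on a high-fat diet with and without atractylodin, a polyacetylene of Atractylodes plants. They were Klf2, Klf3, Klf4, Klf6, Klf9, Klf10, Klf11, Klf12, Klf13 and Klf15, matched by symbol, and they are 10 of the 23282 rows of the deposited count files and 10 of the 17 Klf symbols in them. The genes were chosen by name with their measured difference between atractylodin and vehicle in these same libraries already known, so their values in that contrast, including which of them passed the threshold over all rows, are a description and support nothing further. No level or fold separates the listed genes from the other Klf genes exactly. The lowest listed levels were those of Klf11, at a mean of 4.38 CPM (read counts scaled to library size) over all libraries, and Klf4, at 6.57 CPM, and the most abundant Klf gene outside the list was Klf7, at 7.31 CPM.

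The animals were male C57BL/6N mice that started the diet at 8 weeks of age and ate it for 12 weeks. The atractylodin group (3 libraries) received 10 mg/kg by mouth on 5 days per week over the last 4 weeks, and the vehicle group (3 libraries) received vehicle. All mice of both groups were on the high-fat diet, and no group on a control diet is analysed here, so the data speak of the drug within diet-fed liver. The labels do not say that each library came from a separate animal, so the spread between libraries may be partly technical. Total counts were 9871762 to 12565393 in the atractylodin libraries and 1831461, 11120089 and 12111553 in vehicle 1, 2 and 3. Vehicle 1 is therefore much shallower, and calls of named genes or lists that change without it are marked where they are given. Hepatocyte markers were abundant in every library, as in the labelled tissue, with Alb, the plasma albumin gene of hepatocytes, at 52100 ± 4170 CPM with atractylodin and 54200 ± 1490 CPM with vehicle (SD, n = 3 each).

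Kruppel-like factors are transcription factors whose C-terminal zinc fingers bind CACCC boxes and GC-rich sequences, while their N-terminal parts differ and recruit either activators or co-repressors. In liver, KLF15 promotes amino acid catabolism and gluconeogenesis in fasting, KLF9 and KLF15 are induced by glucocorticoids, KLF10 follows the circadian clock, and KLF10 and KLF11 were first described as TGF-beta-inducible genes. KLF2 and KLF4 are best known from endothelial cells, which sense flow, and KLF6 from injured tissue. Whole liver holds all of these cell types, and in bulk RNA fewer cells of a type and less RNA per cell cannot be told apart.

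The promoter windows of Klf9, Klf13 and Klf15 are shown because these were the listed genes whose difference passed the threshold used below. Each is the 250 bases before the RefSeq transcript start in build GRCm38.p6, read 5' to 3' on the strand of the gene. Klf9 lies at chr19:23140976-23141225 on the plus strand, Klf13 at chr7:63938916-63939165 on the minus strand and Klf15 at chr6:90462326-90462575 on the plus strand. Capitals mark the CACCC box (CACCC), the GC box (GGGCGG) and the E-box (CACGTG), each searched on both strands.
Klf9: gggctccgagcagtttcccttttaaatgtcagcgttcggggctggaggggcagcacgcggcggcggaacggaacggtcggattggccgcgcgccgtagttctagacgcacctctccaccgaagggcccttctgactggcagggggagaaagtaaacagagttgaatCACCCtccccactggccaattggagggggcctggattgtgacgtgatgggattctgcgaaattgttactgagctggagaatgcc
Klf13: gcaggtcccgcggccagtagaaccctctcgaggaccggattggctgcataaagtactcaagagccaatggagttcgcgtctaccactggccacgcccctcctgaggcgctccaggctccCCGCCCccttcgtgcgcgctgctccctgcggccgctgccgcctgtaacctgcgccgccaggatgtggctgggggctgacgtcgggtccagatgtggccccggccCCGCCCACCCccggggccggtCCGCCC
Klf15: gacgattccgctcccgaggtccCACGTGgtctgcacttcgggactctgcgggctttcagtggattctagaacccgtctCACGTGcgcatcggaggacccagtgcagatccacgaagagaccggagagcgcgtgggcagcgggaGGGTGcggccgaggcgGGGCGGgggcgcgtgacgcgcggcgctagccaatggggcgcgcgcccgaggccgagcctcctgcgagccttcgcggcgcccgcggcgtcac
Klf15 held 2 E-boxes, the element bound by CLOCK and BMAL1, which began 228 and 172 bases before the start, and 1 GC box and 1 CACCC box. Klf13 held 3 GC boxes, the nearest 6 bases before the start, and 1 CACCC box that overlapped another of the GC boxes. Klf9 held 1 CACCC box, 84 bases before the start, and neither of the other motifs.

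RefSeq windows were matched for 9 of the 10 genes, all but Klf10. The Klf12 window (chr14:100149797-100150046) lies within the GENCODE span of the gene, 99870632 to 100284679, so it is not at the outermost annotated start. It held 1 CACCC box and had 48.0% G and C. The Klf2, Klf3, Klf6 and Klf11 windows began before the GENCODE start of the gene and ended past it. An E-box was present in 4 of these 9 (Klf4, Klf6, Klf11 and Klf15) and in 6.02% of all 32851 windows of the same length. A GC box was present in 7 of 9 and in 32.7% of all windows, a CACCC box in 6 of 9 and in 52.0% of all, and a CCAAT box in 5 of 9 and in 33.8% of all. The palindrome ACANNNTGT, which the glucocorticoid receptor can bind, was in 0 of the 9 windows and in 5.84% of all, and the cAMP response element TGACGTCA was in 0 of 9 and in 1.55% of all. The Klf windows had 48.0% to 78.4% G and C, the median over all windows was 52.4%, and the part of base composition in these shares was not tested. These matches describe letters only.

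Of the 10 genes 8 had higher estimates with atractylodin. Klf9, Klf13 and Klf15 passed an adjusted p of 0.05 in edgeR's quasi-likelihood test over all 12505 tested rows, all higher with atractylodin. Klf4, Klf6 and Klf11 had larger estimates with wider errors. No listed gene was called lower in edgeR, DESeq2 or limma-voom. At an unadjusted p under 0.05, 6 were higher (Klf3, Klf4, Klf9, Klf11, Klf13 and Klf15) and 1, Klf10, was lower. Of all 12505 tested rows 1391 were higher and 1302 lower at that unadjusted p. Over all rows 7.25% were called, 3.92% higher and 3.33% lower. All 10 listed genes passed the filter on low counts. The atractylodin and vehicle libraries did not overlap for 6 of the 10, with 5 wholly above (Klf4, Klf9, Klf11, Klf13 and Klf15) and 1 wholly below (Klf10), where 26.2% of all tested rows did not overlap, 13.5% above and 12.6% below. The median log2 fold change was 0.43 over the 10 genes and 0.00 over all rows tested. Because the genes were picked with this contrast known, nothing is read from these counts. Scaling by total counts in place of TMM called 312 rows higher and 707 lower in place of 490 and 416, and of the listed genes it then called Klf13 alone.

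**Figure D1:**
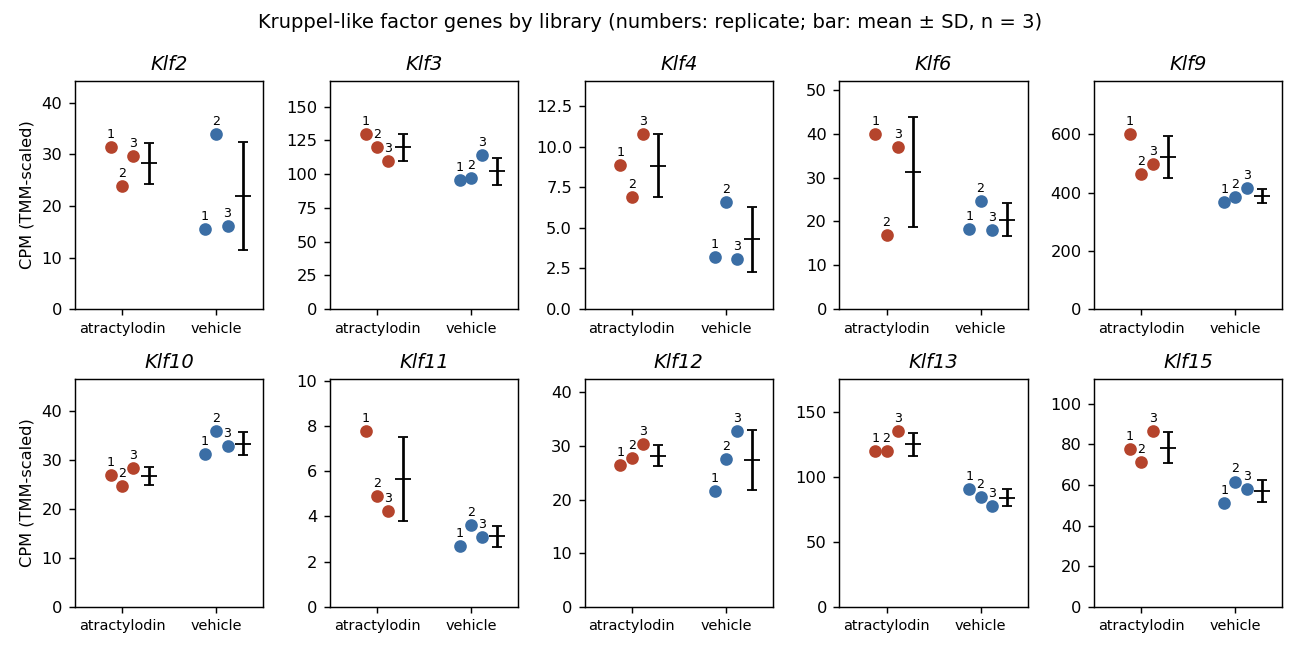
Level of each listed gene in each library, in TMM-scaled CPM on a linear axis from 0, with atractylodin in red, vehicle in blue, replicate numbers above the points and bars for the mean ± SD of 3 libraries. Klf13 runs from 120 to 135 CPM with atractylodin and 77.5 to 90.4 CPM with vehicle, while the groups overlap for Klf2, Klf3, Klf6 and Klf12.

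Klf9 was by far the most abundant of the set. QuantSeq reads come from the 3' end of a transcript, so CPM were not divided by length, and the order of levels between genes is approximate. The mean level over all libraries was 455 CPM for Klf9, 111 for Klf3, 104 for Klf13, 67.6 for Klf15, 30.0 for Klf10, 27.7 for Klf12, 25.8 for Klf6, 25.1 for Klf2, 6.57 for Klf4 and 4.38 for Klf11. Neighbours such as Klf3 and Klf13, or Klf10, Klf12, Klf6 and Klf2, lay within the range of their own libraries. Klf9 made up 53.6% of the summed CPM of the 10 genes with atractylodin and 52.4% with vehicle. The sum was 1070, 880 and 971 CPM in atractylodin 1, 2 and 3, against 698, 759 and 771 CPM in vehicle 1, 2 and 3. Without Klf9 it was 452 ± 31.3 CPM with atractylodin and 354 ± 23.3 CPM with vehicle (SD, n = 3 each). Klf13, Klf15 and Klf3 differed most in CPM among the remaining genes, while Klf10 was lower and Klf12 was nearly level.

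Klf9 encodes a repressor-type factor that glucocorticoids and thyroid hormone induce (chromosome 19, 23141226 to 23168134, GRCm38, plus strand). It stood at 602, 463 and 499 CPM in atractylodin 1, 2 and 3, against 368, 383 and 416 CPM in vehicle 1, 2 and 3. Every atractylodin library lay above every vehicle library, with atractylodin 1 well above the rest. The log2 fold change was 0.42 ± 0.10 (SE), or 1.34-fold higher. Its call was lost without atractylodin 1 (log2 0.31), vehicle 1 (0.39) or vehicle 2 (0.41). Klf9 overlaps the annotated gene Mir1192 on its own strand.

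Klf15 encodes the factor that drives amino acid breakdown and glucose production in the fasted liver (chromosome 6, 90462576 to 90475238, plus strand). Its level was 77.5, 71.3 and 86.4 CPM in the atractylodin libraries, against 51.1, 61.7 and 57.8 CPM in the vehicle libraries. The groups did not overlap and each varied little, with coefficients of variation of 9.64% with atractylodin and 9.41% with vehicle. The log2 fold change was 0.44 ± 0.11 (SE), or 1.36-fold higher. Its call was lost without atractylodin 3 (log2 0.37), vehicle 1 (0.39) or vehicle 3 (0.45).

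Klf13 encodes the closest relative of KLF9, a factor of T cells and heart development (chromosome 7, 63886351 to 63938915, minus strand). It stood at 120, 120 and 135 CPM in the atractylodin libraries, against 90.4, 84.5 and 77.5 CPM in the vehicle libraries. The gap between the groups was wider than the range within either. The log2 fold change was 0.58 ± 0.10 (SE), or 1.49-fold higher, and it stayed between 0.49 and 0.63 over all 14 alternative analyses, in each of which Klf13 was called. Klf13 overlaps 2 annotated genes on the opposite strand, Gm27252 and E030018B13Rik, and the strand setting of the counting is not given in the sources used here. The ratio of Klf9 to Klf13 CPM was 5.03, 3.87 and 3.71 in the atractylodin libraries and 4.07, 4.53 and 5.37 in the vehicle libraries, so this ratio overlapped between groups.

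The TGF-beta-inducible pair had estimates of opposite sign. Klf10, a clock-driven repressor of gluconeogenic genes (chromosome 15, 38291463 to 38300706, minus strand), stood at 26.9, 24.7 and 28.4 CPM in the atractylodin libraries, against 31.2, 35.8 and 32.8 CPM in the vehicle libraries. All atractylodin libraries lay below all vehicle libraries, the only listed gene with that order, and the log2 fold change was -0.33 ± 0.13 (SE), which did not pass. Klf11, its paralog (chromosome 12, 24651274 to 24662789, plus strand), stood at 7.77, 4.91 and 4.26 CPM with atractylodin and 2.69, 3.61 and 3.07 CPM with vehicle. All atractylodin libraries lay above, by a small margin, and the log2 fold change was 0.80 ± 0.32, which did not pass either. Vehicle 1 held only 5 counts of Klf11, an exact 95% Poisson interval of 0.874 to 6.28 CPM that covers counting error only, and without atractylodin 1 the log2 fold change of Klf11 was 0.50. The ratio of Klf10 to Klf11 CPM was 3.46, 5.04 and 6.67 in the atractylodin libraries, against 11.6, 9.93 and 10.7 in the vehicle libraries. With Klf10 wholly lower and Klf11 wholly higher, this ratio could not overlap between groups. It adds nothing to those orders, and no test was made of it.

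Klf2, Klf4 and Klf6 are quickly induced genes, the first of which maintains quiescent endothelium (chromosome 8, 72319033 to 72321656, plus strand). Klf2 stood at 31.4, 23.8 and 29.6 CPM with atractylodin, against 15.6, 34.0 and 16.1 CPM with vehicle. Vehicle 2 was the highest of all 6 libraries and the groups overlapped. The log2 fold change was 0.30 ± 0.31 (SE), 0.83 without vehicle 2, where Klf2 was called, and 0.05 without vehicle 3. Klf4, which has anti-inflammatory roles in endothelium and is a pluripotency factor in stem cells (chromosome 4, 55527143 to 55532466, minus strand), stood at 8.87, 6.89 and 10.8 CPM with atractylodin, against 3.23, 6.61 and 3.07 CPM with vehicle. Its groups just failed to meet, between atractylodin 2 and vehicle 2, and its log2 fold change of 0.95 ± 0.30 was the largest of the set but did not pass. It was 1.51 and called without vehicle 2, and 0.65 without vehicle 3. Only 6 counts of Klf4 were in vehicle 1, an exact 95% Poisson interval of 1.19 to 7.03 CPM.

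Klf6, induced in injured liver and in activated stellate cells (chromosome 13, 5861482 to 5870394, plus strand), stood at 40, 16.8 and 37 CPM with atractylodin, against 18.3, 24.6 and 18.1 CPM with vehicle. Atractylodin 2 was the lowest of all 6 libraries and the other 2 atractylodin libraries the highest. The log2 fold change was 0.59 ± 0.36 (SE), which did not pass, and 0.89 without atractylodin 2, where Klf6 was called. Within groups Klf2, Klf4 and Klf6 had their highest vehicle value in vehicle 2 and their lowest atractylodin value in atractylodin 2, as did Klf10 and Klf15. Vehicle 2 was the highest vehicle library for 6 of the 10 listed genes and atractylodin 2 the lowest atractylodin library for 6 of the 10. The shallow vehicle 1 was the lowest vehicle library for 7 of the 10. These orders were not counted over all rows, so nothing particular to the listed genes is read from them.

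**Figure D2:**
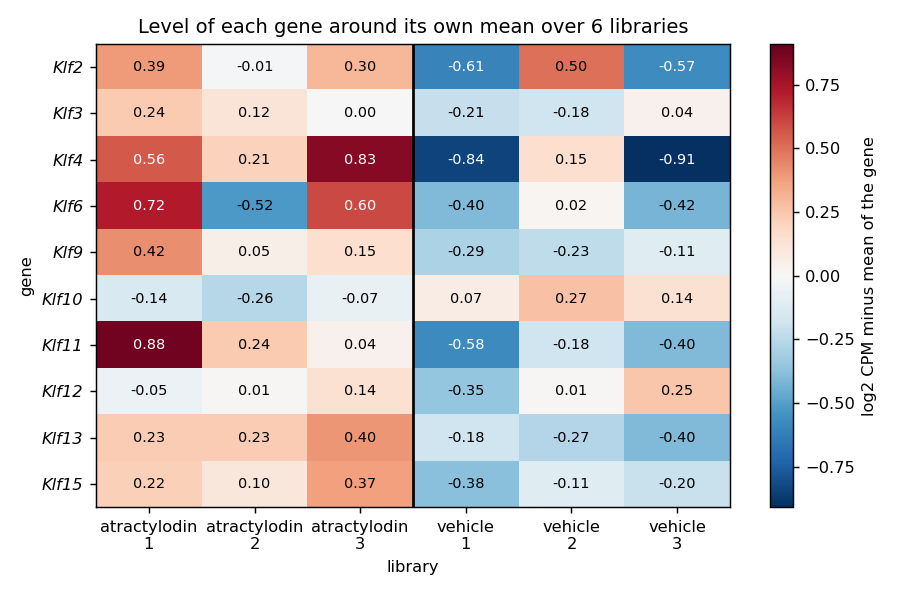
Log2 CPM (prior count 2) of each listed gene minus its mean over the 6 libraries, as color and number, with atractylodin libraries left of the line and vehicle libraries right of it. Klf13 and Klf15 are above 0 in every atractylodin library and below 0 in every vehicle library, while Klf2 is at 0.50 in vehicle 2 and Klf6 at -0.52 in atractylodin 2, against the rest of their groups.

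Klf3 and Klf12 encode repressors that bind the co-repressor CtBP. Klf3, a repressor with roles in fat and blood cells (chromosome 5, 64803388 to 64832901, plus strand), stood at 130, 120 and 110 CPM with atractylodin, against 95.3, 97.4 and 114 CPM with vehicle. The groups overlapped at atractylodin 3 and vehicle 3, and the log2 fold change was 0.22 ± 0.10 (SE), which did not pass. Klf3 overlaps C230096K16Rik on its own strand and Gm20033 on the other. Klf12, first described as a repressor of AP-2alpha (chromosome 14, 99870632 to 100284679, minus strand), stood at 26.5, 27.7 and 30.3 CPM with atractylodin, against 21.5, 27.6 and 32.7 CPM with vehicle. The atractylodin range lay inside the vehicle range. The log2 fold change was -0.01 ± 0.15, and its sign was opposite in 5 of 14 alternative analyses. Klf12 overlaps 4930517O19Rik and Gm16260 on the opposite strand.

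**Figure D3:**
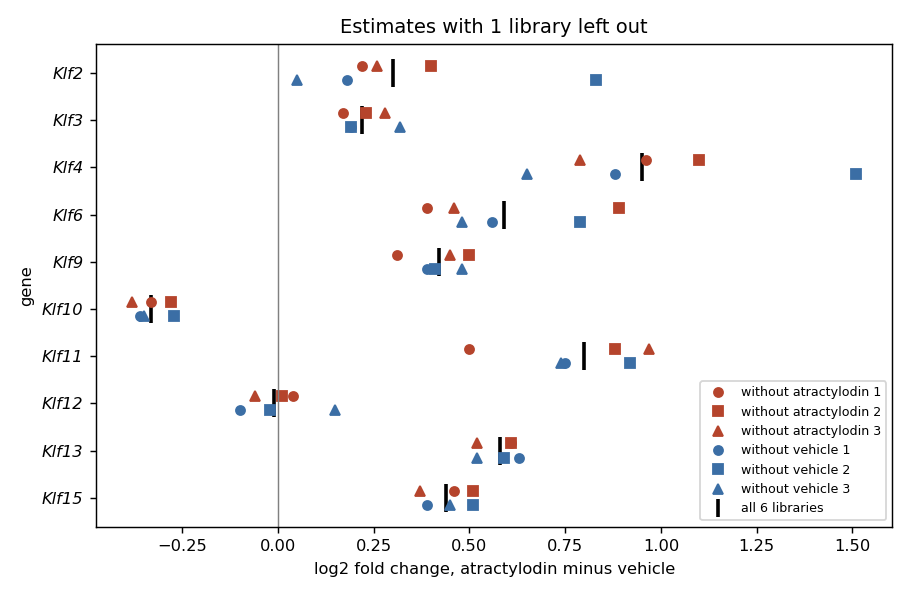
Log2 fold change of atractylodin minus vehicle for each listed gene with all 6 libraries (black bar) and with each library left out in turn (symbols, atractylodin red, vehicle blue). Klf13 stays between 0.52 and 0.63, while Klf4 runs from 0.65 to 1.51 and Klf2 from 0.05 to 0.83.

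The rest of the Klf and Sp family, which shares the zinc-finger domain, held 16 symbols in the files, of which 9 were tested. None was called in edgeR, DESeq2 or limma-voom with this filter, and 3 had an unadjusted p under 0.05, namely Sp1, Sp3 and Sp5. Among all 12505 tested rows 7.25% were called in edgeR and 2693 rows had an unadjusted p under 0.05. The median log2 fold change of the 9 was 0.07. Sp1, the ubiquitous GC-box activator, stood at 70.3, 84.1 and 75.2 CPM with atractylodin, against 67.8, 62.5 and 66.9 CPM with vehicle (log2 0.23 ± 0.10, SE, edgeR adjusted p = 0.214). Sp3, its relative, stood at 33.2 ± 1.92 CPM with atractylodin and 27.3 ± 2.84 CPM with vehicle (SD, n = 3 each, edgeR adjusted p = 0.187). Sp5, a Wnt target in several tissues, stood at 1.20, 1.67 and 0.418 CPM with atractylodin, against 4.84, 2.58 and 2.75 CPM with vehicle (log2 -1.51 ± 0.52, edgeR adjusted p = 0.0931), and it was called lower when no filter was applied. Klf7 stood at 7.59 ± 0.292 CPM with atractylodin and 7.03 ± 2.23 CPM with vehicle (edgeR adjusted p = 0.992), and Klf16 at 3.72 ± 1.39 CPM with atractylodin and 2.32 ± 0.658 CPM with vehicle (edgeR adjusted p = 0.418). Sp2 and Sp4 had log2 fold changes of -0.18 ± 0.28 and -0.37 ± 0.25 (SE). Klf1 and Klf5 were at a mean of 1.97 and 0.772 CPM, and Klf8, Klf14 and Klf17 were too low to be tested.

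**Figure D4:**
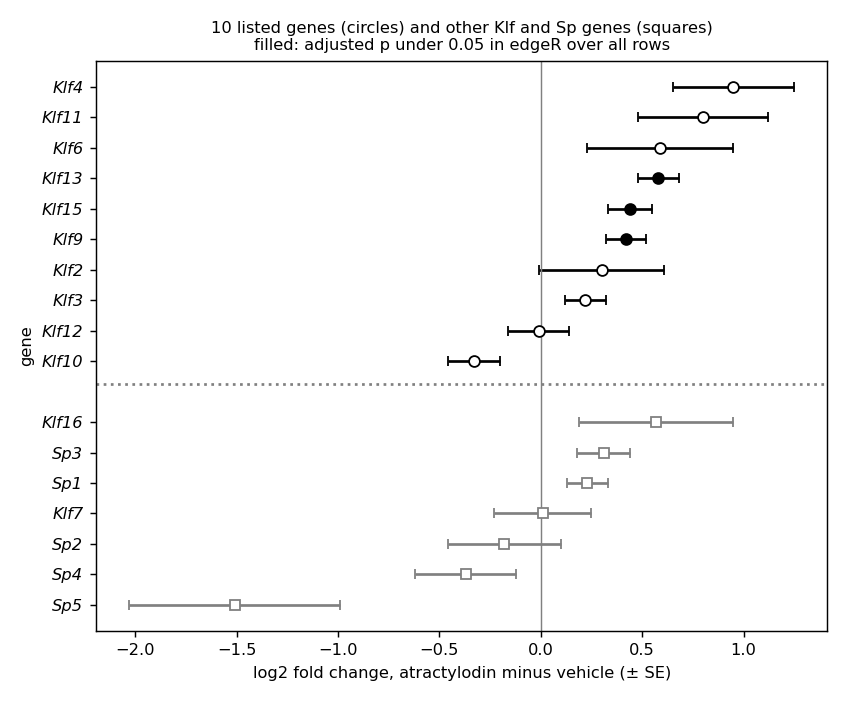
Log2 fold change of atractylodin minus vehicle with its SE for the 10 listed genes (circles) and the other Klf and Sp genes tested with a mean of at least 2 CPM (squares), filled where the adjusted p was under 0.05. The filled genes are Klf13 at 0.58, Klf15 at 0.44 and Klf9 at 0.42, and no square is filled.

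RNA of the genes for partner proteins of Kruppel-like factors was counted in the same libraries. Of 14 tested co-repressor genes of the CtBP and Sin3 complexes, 0 were called in edgeR, DESeq2 or limma-voom and 0 had an unadjusted p under 0.05, with a median log2 fold change of 0.07. Over all 12505 tested rows 7.25% were called in edgeR. An unadjusted p under 0.05 was reached by 2693 of those rows, 1391 of them higher. Rcor1, a co-repressor scaffold, and Rbbp4, a histone chaperone, had the smallest p, at log2 fold changes of 0.31 ± 0.15 and 0.18 ± 0.09 (SE, edgeR adjusted p = 0.239 and 0.267). Of 8 acetyltransferase and co-activator genes 0 were called by the same tools, while 3 had an unadjusted p under 0.05, all with higher estimates, and the median was 0.20. Med1, a Mediator subunit, and Crebbp, an acetyltransferase, led them at 0.26 ± 0.10 and 0.24 ± 0.10 (SE, edgeR adjusted p = 0.137 and 0.186).

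Genes that share inducers with Klf9 and Klf15 included several that rose. Of 16 tested genes that glucocorticoids induce in liver, 5 rose and 0 fell, where 3.92% of all rows were called higher and 3.33% lower. Of the rest 0 were lower at an unadjusted p under 0.05. The median log2 fold change was 0.86, against 0.00 over all rows. The list was chosen with earlier results of these data known. Estimates were above 0 for 15 and below 0 for 1, Lcn2, at -1.51 ± 1.08 (SE). Sgk1 and Dusp1 were nearly level, at 0.12 ± 0.22 and 0.12 ± 0.19 (SE). Zbtb16, a zinc-finger factor and strong glucocorticoid target, rose to 32.9 ± 1.86 CPM with atractylodin, against 4.16 ± 1.74 CPM with vehicle (SD, n = 3 each, edgeR adjusted p = 1.15e-07). Per1, a clock gene that glucocorticoids also induce, rose to 28.4 ± 7.75 CPM with atractylodin, against 10.8 ± 1.24 CPM with vehicle (edgeR adjusted p = 0.000712). Angptl4, whose product blocks lipoprotein lipase, stood 1.72-fold higher (edgeR adjusted p = 0.00154). The count of rises was 4 to 9 when 1 library was left out, 9 without atractylodin 2, and 7 in DESeq2. Without vehicle 1, 5 were called higher and 1 lower. The summed level of the list varied widely within the atractylodin group, at 10500, 7650 and 19700 CPM in atractylodin 1, 2 and 3, against 5790, 4410 and 4820 CPM in vehicle 1, 2 and 3. Most of that spread was in the metallothionein genes Mt1 and Mt2, neither of which was called. Mt1 stood at 2450, 1800 and 6200 CPM with atractylodin, against 2740, 1270 and 1620 CPM with vehicle. Mt2 stood at 2010, 1100 and 7250 CPM with atractylodin, against 1370, 649 and 878 CPM with vehicle. Both are named because of their size in this sum, after their values were seen.

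Clock genes, the setting of Klf10, went both ways. Of 21 tested members, Per1 among them, 6 rose and 3 fell, with a median log2 fold change of 0.11. Among all rows 3.92% were called higher and 3.33% lower. Rora, an activator of Bmal1, rose to 194, 185 and 197 CPM with atractylodin, against 136, 133 and 149 CPM with vehicle (log2 0.46 ± 0.09, SE, edgeR adjusted p = 0.00454). Nr1d1, the repressor REV-ERBalpha, fell to 9.86, 14.4 and 11.8 CPM with atractylodin, against 28, 22.7 and 26.8 CPM with vehicle (log2 -1.08 ± 0.17, edgeR adjusted p = 0.000994). Without vehicle 3, 3 rose and 2 fell, without vehicle 1, 5 rose and 2 fell, scaling by total counts called 4 each way, and the time of day of tissue collection is not given in the sources used here.

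Of 16 tested genes of TGF-beta signalling, the setting of Klf10 and Klf11, 1 rose, 1 fell and 14 did not pass, with a median log2 fold change of 0.03. Among all rows 3.92% were called higher and 3.33% lower. Skil, a feedback repressor of SMADs, rose to 19.7 ± 1.79 CPM with atractylodin, against 9.60 ± 2.44 CPM with vehicle (SD, n = 3 each, edgeR adjusted p = 0.00416). Tgfbr2, the ligand-binding receptor, fell to 10.1 ± 0.857 CPM with atractylodin, against 17.7 ± 4.49 CPM with vehicle (edgeR adjusted p = 0.0283), a call lost in limma-voom, without atractylodin 1 or 2 and without vehicle 1 or 2. Of 19 tested immediate early genes 2 rose and 0 fell, with 0 lower at an unadjusted p under 0.05 and a median of 0.12. The count was 4 without atractylodin 2, 1 without vehicle 1 and 0 without vehicle 3. Dusp6, a phosphatase of ERK kinases, rose 1.58-fold (edgeR adjusted p = 0.0177), lost without vehicle 1 or vehicle 3 and under total-count scaling, and Ier3, a stress-response gene, rose to 3.77 ± 0.546 CPM with atractylodin, against 1.52 ± 0.55 CPM with vehicle (edgeR adjusted p = 0.0331), lost with the replicate block and in 5 of the 6 analyses that left out 1 library.

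**Figure D5:**
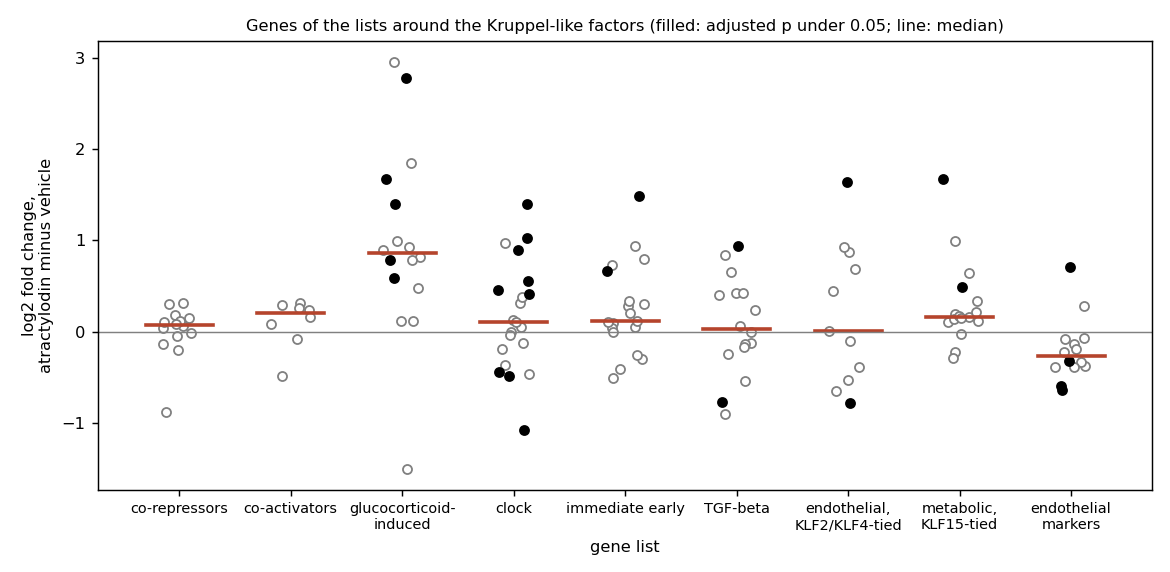
Log2 fold change of atractylodin minus vehicle for the tested genes of each list (points, filled where the adjusted p was under 0.05) with the median of the list (red line). The glucocorticoid-induced list has the highest median of those drawn, 0.86, and the endothelial markers the lowest, -0.27.

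Of 16 tested genes of amino acid catabolism and gluconeogenesis tied to KLF15 in mouse liver 2 rose and 0 fell, while 2 were lower at an unadjusted p under 0.05, and the median log2 fold change was 0.16. Over all 12505 tested rows 7.25% were called, and 1302 were lower at an unadjusted p under 0.05. Pck1, the gluconeogenic PEP carboxykinase that the glucocorticoid list also holds, rose to 3950, 3340 and 3650 CPM with atractylodin, against 804, 1370 and 1260 CPM with vehicle (log2 1.67 ± 0.19, SE, edgeR adjusted p = 0.00247). Ahcy, which hydrolyses S-adenosylhomocysteine, rose to 793 ± 114 CPM with atractylodin, against 565 ± 29.6 CPM with vehicle (SD, n = 3 each, edgeR adjusted p = 0.00782). The summed level of the list was 10100, 10500 and 10200 CPM in atractylodin 1, 2 and 3, against 6630, 6660 and 7070 CPM in vehicle 1, 2 and 3, and Pck1 made up a large share of it. DESeq2 called 3 of the list higher, and scaling by total counts called 2 higher and 1 lower.

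Endothelial genes were set beside Klf2 and Klf4. Of 11 tested endothelial genes tied to these factors 1 rose and 1 fell, with a median log2 fold change of 0.01. Among all rows 3.92% were called higher and 3.33% lower. S1pr1, the sphingosine-1-phosphate receptor gene that KLF2 activates in T cells, fell to 29.9, 32.5 and 35.5 CPM with atractylodin, against 70.5, 47.2 and 55.8 CPM with vehicle (log2 -0.78 ± 0.14, SE, edgeR adjusted p = 0.00205), and every vehicle library lay above every atractylodin library. Sele, the endothelial selectin, rose to 3.93 ± 1.29 CPM with atractylodin, against 1.60 ± 1.03 CPM with vehicle (edgeR adjusted p = 0.0431), a call lost in DESeq2 (adjusted p = 0.0501), under total-count scaling, with the replicate block and in 4 of the 6 analyses that left out 1 library. Of 14 liver endothelial markers 3 fell and 1 rose, the median was -0.27, and their summed level was 480 to 498 CPM with atractylodin and 548 to 568 CPM with vehicle. None of these calls held without atractylodin 3, vehicle 1 or vehicle 3. Ptprb, an endothelial phosphatase and the most abundant of these markers, stood at 80.6 ± 3.42 CPM with atractylodin and 101 ± 1.36 CPM with vehicle. Klf2 per 100 CPM of these markers was 6.31, 4.85 and 6.18 in the atractylodin libraries, against 2.75, 6.21 and 2.91 in the vehicle libraries, which overlap. Klf4 per 100 CPM of the markers was 1.78, 1.40 and 2.24 with atractylodin, against 0.569, 1.21 and 0.556 with vehicle. With Klf4 wholly above and the marker sum wholly below with atractylodin, this ratio could not overlap. It does not show Klf4 apart from endothelial content.

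Markers of the other cell types were summed in the same way. The counts of called markers below stand beside 7.25% of all tested rows called in edgeR, 3.92% higher and 3.33% lower. Macrophage markers summed to 329 to 494 CPM with atractylodin and 396 to 559 CPM with vehicle, and stellate cell markers to 432 to 569 CPM with atractylodin and 491 to 640 CPM with vehicle. In edgeR 0 of 13 macrophage and 0 of 14 stellate markers were called and 3 of each had an unadjusted p under 0.05, while DESeq2 called 0 and 1, and limma-voom 0 of either. Of all 12505 tested rows 2693 had an unadjusted p under 0.05. The macrophage and stellate sums were highest in vehicle 2 among the vehicle libraries, and lowest in atractylodin 2 among the atractylodin libraries (432 CPM for stellate markers there and 434 CPM in atractylodin 3). Klf2, Klf4, Klf6, Klf10 and Klf15 shared these extremes. Within groups both sums were also highest in atractylodin 1 and lowest in vehicle 1, while Klf4 was highest in atractylodin 3 and lowest in vehicle 3. The part of these cells in the values of the Klf genes was not tested. Col3a1, a fibrillar collagen of activated stellate cells, stood at 9.57, 4.18 and 5.34 CPM with atractylodin, against 17.2, 48.9 and 18.2 CPM with vehicle, and was not called in edgeR. Cholangiocyte markers were lower, at a sum of 36.5 to 39.5 CPM with atractylodin and 70.5 to 92.6 CPM with vehicle, and 3 of 5 tested members fell, with a median log2 fold change of -0.94. The count was 3 in every analysis that left out 1 library. Markers of T, B and NK cells summed to 2.29 to 6.10 CPM with atractylodin and 2.69 to 5.74 CPM with vehicle, and 0 of the 1 tested was called. Neutrophil markers summed to 1.25 to 23.0 CPM with atractylodin and 6.14 to 8.07 CPM with vehicle, with 0 of 3 called. Red cell markers summed to 1470 to 2860 CPM with atractylodin and 1820 to 2320 CPM with vehicle, and 1 of 5 fell, Alas2, the first enzyme of heme synthesis in red cells. Hepatocyte markers summed to 112000 to 115000 CPM with atractylodin and 109000 to 126000 CPM with vehicle, and 1 of 10 rose, Hnf4a, a master regulator of hepatocytes, at 478 ± 49.2 CPM with atractylodin and 294 ± 25.7 CPM with vehicle (SD, n = 3 each, edgeR adjusted p = 0.000405). The part of cell composition in the values of the Klf genes was not tested.

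The rows most like the called Klf genes across the 6 libraries were found by the root mean square difference of log2 CPM after centring each row. Closest to Klf9 were Pfkfb2, which makes fructose-2,6-bisphosphate, at a difference of 0.04, and Zbtb41, a zinc-finger gene, at 0.05. Closest to Klf13 were Ak6, a nuclear adenylate kinase, and Ints8, an Integrator subunit, each at 0.05. Closest to Klf15 were Mocos, which activates molybdenum enzymes, at 0.03 and Eea1, an endosome tether, at 0.04. Mocos stood at 44.7, 43.5 and 51.5 CPM with atractylodin, against 30.7, 37.9 and 33.6 CPM with vehicle, the same order of the libraries within each group as for Klf15. With 6 libraries and 12505 rows such likeness says nothing of shared control.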

How the data were processed

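Liver RNA (500 ng of total RNA per library, per the labels' protocols) was sequenced as QuantSeq 3' libraries, 3 with atractylodin and 3 with vehicle. Each library's deposited file gives raw read counts by gene symbol. Bowtie2, bedtools and the mm10 build are named in the submitters' processing notes, and the annotation and the handling of strand and multiply matching reads are not given in the sources used here. Of 23282 rows, 44 repeat a symbol already listed and were tested separately, and each Klf gene had 1 row.

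Rows were filtered with filterByExpr, scaled by TMM and tested in edgeR 4.0.16 (R 4.3.3) with the robust quasi-likelihood F-test without covariates. P-values were Benjamini-Hochberg adjusted over 12505 rows at 0.05. SE is the log2 fold change over the square root of F. CPM use TMM-scaled sizes. A floor of 3 counts is 0.239 to 0.304 CPM in 5 libraries and 1.64 CPM in vehicle 1, for counting error only. Alternatives were RLE, upper quartile and total-count scaling, no filter, a mean of at least 5 CPM, DESeq2 1.42.0, limma-voom 3.58.1, a replicate block and leaving out each library. The pairs of libraries differed by at least 2.75 in chi-square per degree of freedom, so no library is a copy of another.

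The members and gene lists were chosen with earlier results of these data known. Named were the 10 members, the other Klf genes and the tested Sp genes. Of each list up to 3 called genes (or the 2 with the smallest p) were named, and of the markers the most abundant or smallest-p ones. For each called member the 2 rows of average log2 CPM of at least 2 most like it were named. Lcn2, Sgk1, Dusp1, Mt1 and Mt2 were named outside this rule, for their values. Positions are from GENCODE M21 on GRCm38 (mm10) and promoters from RefSeq on GRCm38.p6. Figures used matplotlib 3.10.9.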

Additional observations from a re-analysis of the deposited data

How the results depend on the processing

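Klf13 kept its call in all 14 alternatives. Klf9 and Klf15 each kept theirs in 10 of 14. The number of listed genes called was 3 in the main analysis and in 6 alternatives (RLE, upper quartile, a mean of at least 5 CPM, DESeq2, limma-voom and the replicate block). It was 1 with total counts alone, 5 without a filter, and 1 to 4 when 1 library was left out, with 1 without vehicle 1. All rows called numbered 906, and 467 to 751 when 1 library was left out, with 494 without vehicle 1 and 467 without vehicle 3. Klf12 changed sign without a filter (log2 0.00), with the replicate block (0.03) and among the fits that left out 1 library (-0.10 to 0.15). Klf7 changed sign with upper quartile scaling (-0.01), total counts (-0.08), limma-voom (-0.04) and over the left-out libraries (-0.10 to 0.26). Sp2 ran from -0.41 to 0.00 and Alb from -0.11 to 0.01 over the left-out libraries. Among the gene lists, the immediate early count of 2 was 5 without a filter and 0 without vehicle 3, and the endothelial marker count of 4 was 5 with total counts and 0 without atractylodin 3. The cause was not tested. The block called 811 rows and the same number of listed genes. Same-numbered libraries did not deviate together (correlations over genes of -0.027, -0.089 and 0.022), so the numbers were not taken as pairs. The depth of vehicle 1 limits Klf4 and Klf11 most, at 6 and 5 counts.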
